A study of Mus musculus with 69 samples.

Results

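Genes of the carnitine shuttle were examined by bulk RNA-Seq in primary vascular cells of male C57BL/6 mice. The members were chosen by name, as the 8 of 56953 genes in the count tables whose Ensembl identifiers belong to Cpt1a, Cpt1b, Cpt1c, Cpt2, Slc25a20, Slc22a5, Crat and Crot. Wildtype vascular smooth muscle cells (WT VSMC) and EGFR-knockout VSMC (KO VSMC) came from the aorta, and endothelial cells (EC), labelled wildtype, came from the heart. KO VSMC derived from mice with floxed Egfr alleles and Cre recombinase under the SM22 promoter, which is active in smooth muscle. Animal age was not given in the sources used here. Cells were either kept as Control or received, for 24 h, metabolic stressors (HG + FFA, 20 mM glucose with 100 µM free fatty acids), humoral stressors (AII + NA, 30 nM angiotensin II with 300 nM of a catecholamine), or both together (ALL). The fatty-acid-free albumin that carries the fatty acids was present in every incubation solution, Control included. The catecholamine is named epinephrine in the labels and norepinephrine in the methods of the study, and the sources also differ on whether 100 µM was the dose of each fatty acid. The 69 libraries fall into 18 sets, each set being cells of 1 animal at 1 passage treated at the same time: sets 1 to 4 are WT VSMC, sets 5 to 8 KO VSMC and sets 9 to 18 EC. VSMC were grown for up to 7 passages, and EC were depleted of CD45-positive cells and selected for CD31 on beads. Sets 17 and 18 came from the same animal, EC sets 9 and 10 from the animals of WT VSMC sets 1 and 2, and EC sets 15 and 16 from those of KO VSMC sets 7 and 6; the ALL library of set 5, the Control library of set 10 and the AII + NA library of set 15 were not analysed here. Levels are given as FPM, reads per 1000000 reads after scaling of the library sizes by the TMM method (trimmed mean of M values).

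Long-chain fatty acids cannot cross the inner mitochondrial membrane as coenzyme A esters. Carnitine palmitoyltransferase 1 (CPT1) on the outer membrane moves the acyl group onto carnitine, the carrier encoded by Slc25a20 exchanges the acylcarnitine into the matrix, and carnitine palmitoyltransferase 2 (CPT2) returns the acyl group to coenzyme A for beta-oxidation. CPT1 is the step that malonyl-CoA inhibits, and several genes of the shuttle are known targets of the fatty acid-sensing PPAR receptors. Slc22a5 encodes OCTN2, the sodium-dependent transporter that brings carnitine into the cell, while Crat and Crot encode the acetyltransferase and octanoyltransferase for shorter chains.

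The data showed higher RNA of a part of the shuttle with fatty acids and glucose. Cpt1a, Slc22a5 and Slc25a20 were the members with the larger changes in KO VSMC and EC under HG + FFA, by 1.29-fold to 2.05-fold, and Crot was also higher in EC, by 1.24-fold. Under ALL, Cpt1a was higher in all of WT VSMC, KO VSMC and EC, by 1.44-fold, 1.98-fold and 1.66-fold. Cpt2 and Crat passed the test in no comparison with Control, no member passed it as lower, and AII + NA alone changed no member past the test in any cell type. Cpt1b, the muscle isoform of CPT1, was at most 12 reads in a library.

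PPAR receptors paired with RXR are known to bind the direct repeat 1 motif, AGGTCA repeated in the same orientation with 1 base of any kind between the copies, and the motif was therefore looked up at the members. Within 5000 bases on either side of the start of the canonical transcript, on both strands, a match with at most 1 mismatch among the 12 fixed bases was present for 4 of the 8 members and for 18.8% of 21664 protein-coding genes scanned, while an exact match was present for 2.08% of them. The matches below are from GRCm39 and are written 5′ to 3′ on the strand of the motif, with the 13 bases of the match in capitals. They lie at chr15:89313569-89313581 (minus strand) for Cpt1b, at -3350 bases from that start, at chr7:44624021-44624033 (plus strand) for Cpt1c, at 264 bases past the start and within the gene, at chr4:107782431-107782443 (minus strand) for Cpt2, at -1625 bases, and at chr2:30307830-30307842 (minus strand) for Crat, at -1803 bases.
Cpt1b: gtcccgtgAGGTCAGGGGTCAgccctggg
Cpt1c: acttacacCGGTCAGAGGTCAgcagctgc
Cpt2: gtgtgtggAGGTCAGAGGACAtccttcac
Crat: gtgagtggAGGTCAGAGGACAacattcaa

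These letters, at that stringency, were not present in the window of Cpt1a, Slc22a5, Slc25a20 or Crot, the 4 members that were higher in EC. A site with more mismatches or outside the window would not be found by this search, and binding was not tested. The RefSeq promoter table (250 bases before and 50 bases after the gene start, GRCm38.p6) held 6 of the 8 members. The closest match to the motif had 4 mismatches in Cpt1a, Slc22a5, Crot and Cpt1c, and 79.8% of 32851 promoters held a match with as few. For Cpt2 it had 5 mismatches, and 99.9% of promoters held a match with as few. In the Slc25a20 promoter the closest match to the motif had 2 mismatches, began 6 bases after the gene start and is shown with its 13 bases in capitals. A match with as few mismatches was held by 3.86% of the promoters.
Slc25a20: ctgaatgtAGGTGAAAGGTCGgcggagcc

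The 250 bases before the gene start are shown for the 3 members that moved together across the libraries, Cpt1a at chr19:3323051-3323300 (plus strand), Slc22a5 at chr11:53891704-53891953 (minus strand) and Slc25a20 at chr9:108661886-108662135 (plus strand), all in GRCm38.p6. Capitals mark the GC box, GGGCGG or its complement CCGCCC, of which these sequences hold 2, 3 and 3. The same window held 2, 2 and 1 for Cpt2, Crot and Cpt1c, so that a GC box was not particular to the members shown. A GC box was present in the same window of 32.7% of all promoters in the table. A match describes the letters only.
Cpt1a: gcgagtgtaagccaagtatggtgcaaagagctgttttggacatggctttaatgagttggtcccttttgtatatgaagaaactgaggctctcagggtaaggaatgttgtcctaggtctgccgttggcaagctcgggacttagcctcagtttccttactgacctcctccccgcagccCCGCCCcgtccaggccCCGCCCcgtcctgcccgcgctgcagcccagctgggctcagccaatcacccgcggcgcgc
Slc22a5: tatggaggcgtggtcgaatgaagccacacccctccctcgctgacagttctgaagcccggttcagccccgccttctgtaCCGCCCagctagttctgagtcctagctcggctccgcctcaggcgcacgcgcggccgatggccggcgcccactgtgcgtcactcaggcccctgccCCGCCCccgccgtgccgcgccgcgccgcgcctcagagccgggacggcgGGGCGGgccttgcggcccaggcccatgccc
Slc25a20: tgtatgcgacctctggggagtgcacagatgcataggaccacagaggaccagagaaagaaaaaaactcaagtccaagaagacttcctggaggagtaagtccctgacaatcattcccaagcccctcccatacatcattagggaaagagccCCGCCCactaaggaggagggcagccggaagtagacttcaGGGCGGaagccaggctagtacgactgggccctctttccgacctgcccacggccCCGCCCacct

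Library depth was 23626664 to 37801299 assigned reads in WT VSMC, 23238979 to 35120866 in KO VSMC and 17166133 to 43240489 in EC. Behind the levels that follow stood 431 to 1757 reads in a library for Slc22a5, 1945 to 12910 for Cpt1a and 631 to 2518 for Slc25a20. Egfr, the targeted gene, averaged 236 to 409 FPM over the libraries of a WT VSMC set and at most 1.80 FPM in KO VSMC sets 6 to 8, but 35.8 FPM in KO VSMC set 5, which also held the libraries with the highest smooth muscle, fibroblast and leukocyte marker sums of the KO VSMC. By library, the summed level of 7 endothelial markers was 51.4 to 129.7 FPM in EC sets 9, 11 and 13 and 456 to 4752 FPM in the other 7 EC sets. The sum of 6 smooth muscle markers was 824 to 3939.7 FPM in sets 9, 11 and 13 and 201 to 1006.5 FPM in the others, so that these ranges overlapped. Most of this sum was Acta2, with medians of 527 FPM in EC and 839 FPM in WT VSMC. The EC medians of Myh11, Tagln and Cnn1 were 3.0, 4.1 and 3.5 FPM. Those in WT VSMC were 6.1, 3.8 and 20.2 FPM, so that Tagln was not lower in EC. The sum alone does not show smooth muscle identity. Sets 9, 11 and 13 go against their label. For the members with calls in EC or KO VSMC, the values are also given without these 3 sets or without KO VSMC set 5, while the other pathway genes were fitted on all sets only. The sum of 5 fibroblast markers was 1328 to 4287 FPM in WT VSMC and 199 to 1854 FPM in KO VSMC, with smooth muscle sums of 331 to 1989 FPM and 682 to 3415 FPM, and it was 166 to 4826 FPM in EC. The fibroblast sum was above the smooth muscle sum in each WT VSMC library and below it in each KO VSMC library. In each library of EC sets 9, 11, 13, 16 and 17 the fibroblast sum was above the endothelial sum. EC carried another batch label than VSMC, and batch and cell type cannot be told apart. In bulk RNA, fewer cells of a type and less RNA per cell cannot be told apart either. The sum of 5 cardiomyocyte markers reached 311 FPM in EC (set 18), and the sum of 5 adipocyte markers was at most 1.68 FPM. Of the cardiomyocyte markers in EC, Tnnt2 alone reached 307 FPM, whereas Tnni3 was at most 4.75 FPM and Myh6 was 0 in all 38 libraries.

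Carnitine uptake was represented by Slc22a5 (chr11:53753315-53782703, minus strand, GRCm39). In WT VSMC sets 1 to 4, Slc22a5 was 23.8, 23.3, 27.5 and 28.5 FPM under Control, 32.3, 27.5, 47.1 and 28.3 FPM under HG + FFA, and 35.7, 29.4, 48.7 and 29.2 FPM under ALL. All ALL libraries lay above all Control libraries, whereas the HG + FFA and Control libraries overlapped, and set 3 had the highest value under HG + FFA and under ALL. The log2 difference of ALL from Control was 0.45 ± 0.12 (SE, n = 4 sets, edgeR adjusted p = 0.028), and that of HG + FFA was 0.36 ± 0.12 (adjusted p = 0.23). The call for ALL was lost without set 1, 2 or 3, with adjusted p = 0.11, 0.062 and 0.18.

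In KO VSMC sets 5 to 8, Slc22a5 was 27.7, 23.8, 25.4 and 20.1 FPM under Control and 32.5, 38.4, 54.6 and 35.3 FPM under HG + FFA. With ALL it was 35.2, 45.7 and 29.7 FPM in sets 6 to 8. The HG + FFA and ALL libraries lay above all 4 Control libraries, and the set with the highest value was set 7 in both of these groups. The log2 difference was 0.73 ± 0.13 (SE, n = 4 sets, edgeR adjusted p = 0.015) for HG + FFA and 0.62 ± 0.14 (n = 3 sets, adjusted p = 0.079) for ALL, and without set 5 it was 0.89 (adjusted p = 0.0013) and 0.67 (adjusted p = 0.0097). Without set 6, 7 or 8 the call of Slc22a5 for HG + FFA was lost, with adjusted p = 0.24, 0.30 and 0.099.

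In EC, Slc22a5 ranged from 25.3 to 43.2 FPM (median 33.6, n = 9) under Control, from 35.0 to 60.4 FPM (median 41.2, n = 10) under HG + FFA, and from 31.7 to 63.5 FPM (median 39.6, n = 10) under ALL. The groups overlapped, but within sets HG + FFA was above Control in 9 of 9 and ALL in 8 of 9. The log2 differences were 0.36 ± 0.08 (SE, edgeR adjusted p = 0.0038) and 0.30 ± 0.08 (adjusted p = 0.022). Without EC sets 9, 11 and 13 Slc22a5 no longer passed the test for HG + FFA, with a log2 difference of 0.31 (adjusted p = 0.080), and for ALL it did not without set 9, 16 or 18 alone (adjusted p = 0.070, 0.057 and 0.073). For ALL without these 3 sets the difference of Slc22a5 was 0.24 (adjusted p = 0.22). With the animal as the block, since EC sets 17 and 18 share 1, both calls were lost (adjusted p = 0.10 for HG + FFA and 0.24 for ALL). Its paralog Slc22a21, which lies near it on chromosome 11 and is also a carnitine transporter, was not past the test in any of these comparisons.

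**Figure D1:**
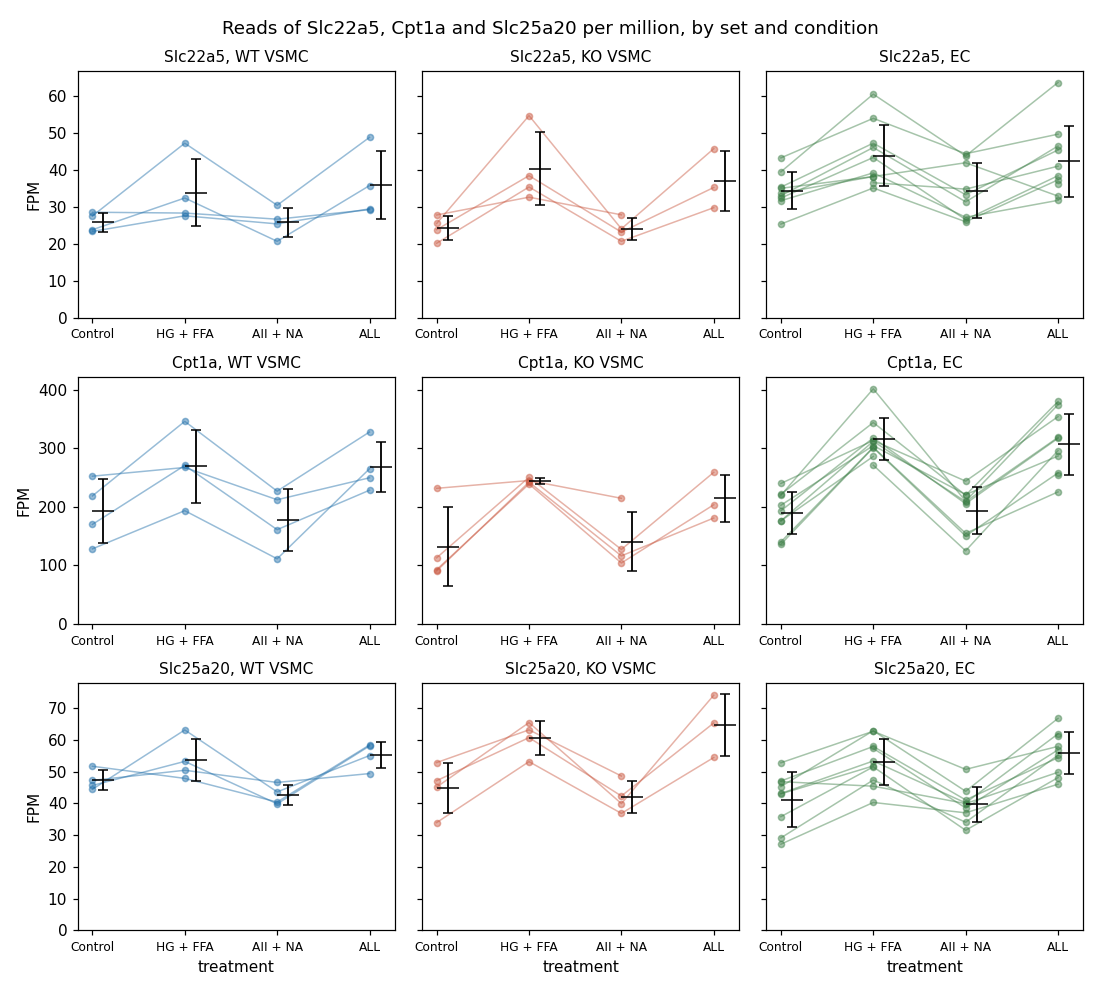
Levels of Slc22a5, Cpt1a and Slc25a20 (y axis, FPM on a linear scale from 0) by treatment (x axis) in WT VSMC, KO VSMC and EC, each point a library, coloured lines joining the libraries of a set, and black bars giving the mean and SD of a group. In Cpt1a the 4 KO VSMC libraries under HG + FFA lie between 239 and 251 FPM, and KO VSMC set 5 starts at 232 FPM under Control.

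The CPT1 isoforms differed in level and response. Cpt1a (chr19:3371853-3437996, plus strand) encodes the isoform known from liver and most other tissues. In WT VSMC sets 1 to 4 it was 128, 170.2, 219 and 253 FPM under Control, 194, 271, 346 and 268 FPM under HG + FFA, 111, 161, 227 and 212 FPM under AII + NA, and 265, 229, 328 and 249.8 FPM under ALL. Sets 1 to 3 were higher under HG + FFA than under Control by 0.59 to 0.67 on the log2 scale and set 4 by 0.08, and the groups overlapped. The fitted log2 difference was 0.49 ± 0.13 (SE, n = 4 sets, edgeR adjusted p = 0.13) for HG + FFA and 0.53 ± 0.14 (adjusted p = 0.026) for ALL, so that only ALL passed the test in WT VSMC, while the difference between ALL and HG + FFA was 0.03 ± 0.13. Without set 1, 2 or 3 the call for ALL was lost (adjusted p = 0.12, 0.066 and 0.13), and without set 1 the difference of Cpt1a fell to 0.33.

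In KO VSMC sets 5 to 8, Cpt1a was 232, 113, 92.9 and 90.7 FPM under Control. Under HG + FFA it was 245, 251, 239 and 242 FPM, and under AII + NA 215, 127, 104 and 116 FPM. With ALL it was 259, 204 and 181 FPM in sets 6 to 8. The HG + FFA libraries were all above the Control libraries and close to each other, and the Control library of set 5 stood far above the other 3. The log2 difference was 1.04 ± 0.17 (SE, n = 4 sets, edgeR adjusted p = 0.012) for HG + FFA and 0.99 ± 0.18 (n = 3 sets, adjusted p = 0.025) for ALL, and 1.33 (adjusted p = 1.4e-05) and 1.13 (adjusted p = 0.00013) without set 5. Leaving out set 6, 7 or 8 ended the call of Cpt1a for HG + FFA (adjusted p = 0.22, 0.31 and 0.086) and for ALL (adjusted p = 0.31, 0.57 and 0.10), with log2 differences of 0.86 to 0.999. The sum of 5 cardiomyocyte markers in sets 5 to 8 was 20.9, 191, 73.8 and 90.8 FPM under Control and 26.6, 114, 21.6 and 22.6 FPM under HG + FFA, lower under HG + FFA in sets 6 to 8 and not in set 5. Most of this sum was Tnnt2, at 17.3 to 188 FPM in KO VSMC. Tnni3, Myl2, Myh6 and Actc1 reached at most 4.76, 0.55, 0.11 and 0.085 FPM there, so that the sum does not show cardiomyocyte content. The part of these markers in the difference of Cpt1a was not tested.

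In EC, Cpt1a ranged from 136 to 240.2 FPM (median 193, n = 9) under Control, from 271 to 402 FPM (median 309, n = 10) under HG + FFA, from 125 to 244 FPM (median 209, n = 9) under AII + NA and from 226 to 380.4 FPM (median 307, n = 10) under ALL. The HG + FFA libraries did not overlap with the Control libraries, and HG + FFA as well as ALL was above Control in 9 of 9 sets. The log2 differences were 0.80 ± 0.07 (SE, edgeR adjusted p = 4.9e-09) and 0.73 ± 0.07 (adjusted p = 3.5e-08). They were 0.87 (adjusted p = 2.7e-06) and 0.75 (adjusted p = 2.3e-05) without EC sets 9, 11 and 13, so that the rise was of similar size in the sets with the higher endothelial marker sums.

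Cpt1c (chr7:44607765-44624306, minus strand), the isoform known from brain neurons with low catalytic activity, was expressed in all libraries. In WT VSMC sets 1 to 4 Cpt1c was 118, 128, 130.0 and 82.0 FPM under Control and 156, 147, 152 and 97.6 FPM under ALL. Each set was higher under ALL, by 0.20 to 0.39 on the log2 scale, and set 4 was lowest under both conditions. The log2 difference was 0.27 ± 0.07 (SE, n = 4 sets, edgeR adjusted p = 0.031), and the call was lost without set 1, 3 or 4 (adjusted p = 0.12, 0.099 and 0.13). For HG + FFA it was 0.18 ± 0.07 (adjusted p = 0.34), and in KO VSMC and EC the differences from Control lay between -0.14 and 0.15 with no call.

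Cpt1b (chr15:89300606-89310239, minus strand), the isoform of heart and skeletal muscle, did not reach the count needed for the test. It had 0 to 12 reads in a library, 37 in all WT VSMC libraries together, 30 in KO VSMC and 94 in EC, and no reads in 4 of 16, 4 of 15 and 13 of 38 libraries. Of its exonic bases, 68.5% are shared with Gm44502 on the same strand. The methods of the study name no option that counts reads shared between genes, so that reads in these bases may be missing from the count of Cpt1b. With no count filter Cpt1b was called in no comparison, the lowest adjusted p being 0.74 in edgeR and 0.57 in DESeq2, both for ALL in WT VSMC, so that a change was not detectable at this depth.

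Transport across the inner membrane was represented by Slc25a20 (chr9:108539250-108562760, plus strand). In WT VSMC sets 1 to 4 Slc25a20 was 44.5, 51.7, 45.7 and 47.3 FPM under Control, 63.2, 47.9, 53.3 and 50.5 FPM under HG + FFA, and 55.1, 58.5, 58.1 and 49.4 FPM under ALL. Set 2 was lower under HG + FFA than under Control and the other 3 sets were higher, with overlap of the groups. Neither log2 difference passed the test, with 0.18 ± 0.09 (SE, n = 4 sets, edgeR adjusted p = 0.49) for HG + FFA and 0.23 ± 0.09 (adjusted p = 0.14) for ALL.

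In KO VSMC sets 5 to 8, Slc25a20 was 52.9, 34.0, 45.2 and 47.2 FPM under Control and 63.2, 53.2, 65.5 and 60.8 FPM under HG + FFA. With ALL it was 54.5, 74.2 and 65.4 FPM in sets 6 to 8. All HG + FFA and ALL libraries lay above all Control libraries, the lowest by less than 1 FPM. The log2 difference was 0.47 ± 0.09 (SE, n = 4 sets, edgeR adjusted p = 0.026) for HG + FFA and 0.61 ± 0.10 (n = 3 sets, adjusted p = 0.014) for ALL. The call of Slc25a20 for HG + FFA was lost without set 6, 7 or 8 (adjusted p = 0.44, 0.48 and 0.094), and that for ALL without set 6 or 7 (adjusted p = 0.20 and 0.48). Without set 5 the differences of Slc25a20 were 0.53 (adjusted p = 0.013) and 0.64 (adjusted p = 0.0063).

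In EC, Slc25a20 ranged from 27.2 to 52.8 FPM (median 43.2, n = 9) under Control, from 40.3 to 62.9 FPM (median 52.6, n = 10) under HG + FFA and from 46.1 to 66.9 FPM (median 56.1, n = 10) under ALL. The groups overlapped, and within sets HG + FFA was above Control in 8 of 9 and ALL in 9 of 9. The log2 differences were 0.39 ± 0.07 (SE, edgeR adjusted p = 0.0012) and 0.46 ± 0.07 (adjusted p = 0.00012), and 0.45 (adjusted p = 0.0014) and 0.52 (adjusted p = 0.00020) without EC sets 9, 11 and 13.

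Cpt2 (chr4:107751473-107780812, minus strand), the enzyme of the matrix side, stayed at 30.3 to 37.9 FPM under Control and at 35.6 to 37.1 FPM under HG + FFA in WT VSMC. In KO VSMC sets 5 to 8, Cpt2 was 40.4, 31.9, 32.9 and 27.9 FPM under Control and 48.7, 28.8, 25.1 and 27.2 FPM under HG + FFA, set 5 being the highest in both. The log2 differences of HG + FFA from Control for WT VSMC, KO VSMC and EC were 0.07 ± 0.09, -0.06 ± 0.11 and -0.03 ± 0.09 (SE). Their 95% confidence intervals, -0.11 to 0.25, -0.29 to 0.17 and -0.21 to 0.15, leave out a difference as large as that of Cpt1a in EC. For AII + NA in KO VSMC, Cpt2 was lower in 4 of 4 sets, with a log2 difference of -0.26 ± 0.11 and an edgeR adjusted p of 0.51. A share of 6.74% of its exonic bases overlaps with Czib on the opposite strand, and the sources used here do not state whether counting used the strand.

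Crat (chr2:30289300-30306340, minus strand), which buffers acetyl groups, was 54.3 to 62.7 FPM under Control in WT VSMC, 61.8 to 71.2 FPM in KO VSMC and 36.0 to 75.6 FPM in EC. Its log2 differences from Control lay between -0.19 and 0.10 over all stressors and cell types, and none passed the test. The value at the lower end was AII + NA in EC, -0.19 ± 0.08 (SE, edgeR p = 0.020, adjusted p = 0.72), with 6 of 8 sets lower. For Crat 24.4% of the exonic bases overlap with genes on the opposite strand (Dolpp1, Gm16323 and Ptpa).

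Crot (chr5:8985926-9047393, minus strand), a peroxisomal enzyme for medium chains, ranged in EC from 24.0 to 91.7 FPM (median 61.9, n = 9) under Control, from 49.2 to 90.4 FPM (median 77.6, n = 10) under HG + FFA, from 35.1 to 101 FPM (median 75.4, n = 9) under AII + NA and from 48.8 to 110.3 FPM (median 74.1, n = 10) under ALL. The ranges overlapped widely, and HG + FFA was above Control in 7 of 9 sets and ALL in 8 of 9. The log2 differences were 0.32 ± 0.09 (SE, edgeR adjusted p = 0.046) for HG + FFA and 0.33 ± 0.09 (adjusted p = 0.038) for ALL. With AII + NA the difference had a similar size, 0.29 ± 0.09, but without a call (p = 0.0041, adjusted p = 0.72), and without EC sets 9, 11 and 13 the HG + FFA difference was 0.27 (adjusted p = 0.13) and the ALL difference 0.28 (adjusted p = 0.12). With the animal as the block neither Crot call held (adjusted p = 0.10 and 0.094). Leaving out any single one of EC sets 10, 12, 13, 14, 15, 17 and 18 ended both Crot calls (adjusted p = 0.053 to 0.15). In WT VSMC the Crot differences were 0.16 ± 0.09 and 0.17 ± 0.09 for HG + FFA and ALL, and in KO VSMC 0.27 ± 0.10 and 0.37 ± 0.11, all without a call. Without KO VSMC set 5, Crot passed the test under HG + FFA (0.40, adjusted p = 0.025) and ALL (0.42, adjusted p = 0.048).

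**Figure D2:**
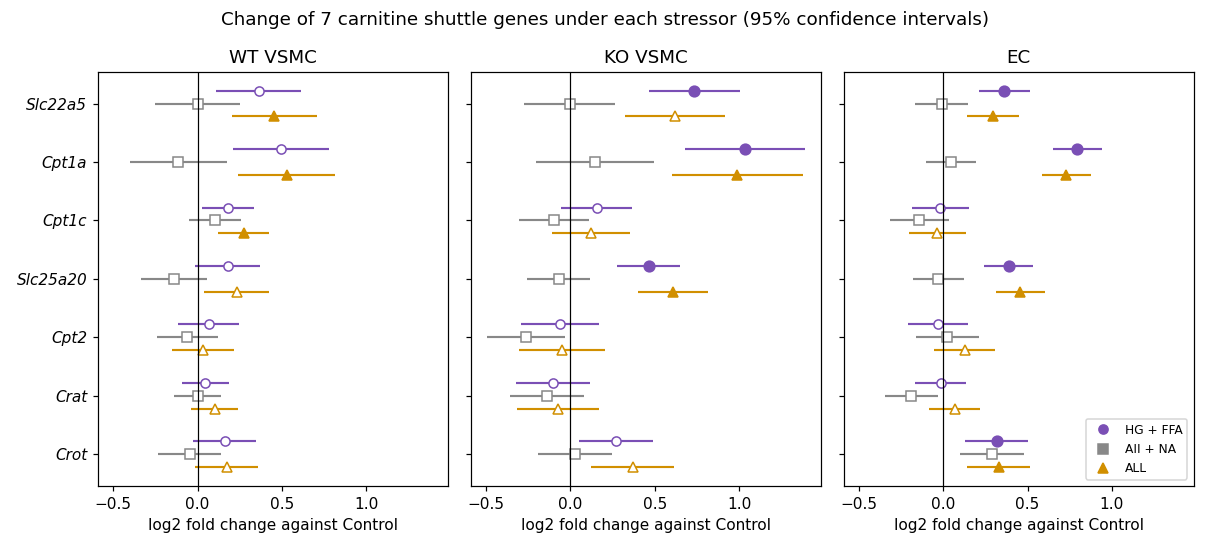
Fitted log2 differences from Control (x axis) of the 7 testable members under HG + FFA, AII + NA and ALL in WT VSMC, KO VSMC and EC, with 95% confidence intervals as horizontal lines and filled symbols for differences that passed the test. Cpt1a in EC stands at 0.80 and 0.73 with narrow intervals, and the AII + NA points lie between -0.26 and 0.29.

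Read against all genes tested, the members called under HG + FFA numbered 0 of 7 in WT VSMC, where 0.538% of all genes were called, 3 of 7 in KO VSMC, where 0.439% were called, and 4 of 7 in EC, where 3.53% were called. Under ALL, 3 of 7 members were called in WT VSMC beside 7.45% of all genes, 2 of 7 in KO VSMC beside 0.399%, and 4 of 7 in EC beside 3.18%. The median log2 difference of the members was 0.18, 0.27 and 0.32 for HG + FFA in WT VSMC, KO VSMC and EC and 0.23, 0.37 and 0.30 for ALL, whereas the median over all genes tested was between -0.01 and 0.00 in each of these 6 comparisons. All 16 calls of members were towards higher levels. With no set block in the fit, the calls were 0 in WT VSMC and KO VSMC and 1 in EC, Cpt1a, under HG + FFA and under ALL alike.

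AII + NA alone gave no call among the members. In WT VSMC 0.0532% of all genes were called for AII + NA, and in KO VSMC as well as in EC 0%. At an unadjusted p under 0.05 the members counted 0, 1 (Cpt2) and 2 (Crat and Crot), and the medians of their log2 differences were -0.05, -0.07 and -0.01. The levels of Cpt1a under AII + NA overlapped with those under Control in all 3 cell types.

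Adding AII + NA to HG + FFA did not move a member past the test. For ALL against HG + FFA no member was called in any cell type. Of all genes, 0.0414% were called in WT VSMC, with 0% for KO VSMC as well as 0% for EC, and no member reached an unadjusted p under 0.05. For Cpt1a the log2 difference of ALL from HG + FFA was 0.03 (95% confidence interval -0.25 to 0.32) in WT VSMC, -0.05 (-0.43 to 0.33) in KO VSMC and -0.06 (-0.20 to 0.08) in EC. The departure of ALL from the sum of both single effects was also called for no member (0% of all genes for each of the 3 cell types), and 0, 0 and 2 members had it at an unadjusted p under 0.05.

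Whether loss of EGFR changed the response was tested on the difference of the effects between KO VSMC and WT VSMC. The HG + FFA effect on Cpt1a was larger in KO VSMC by 0.54 on the log2 scale (95% confidence interval 0.15 to 0.93, edgeR p = 0.0078, adjusted p = 1.0), and that on Slc22a5 by 0.37 (0.02 to 0.73, adjusted p = 1.0). For ALL the differences were 0.46 (0.04 to 0.87) for Cpt1a and 0.37 (0.07 to 0.68) for Slc25a20, with adjusted p = 1.0 for both. No member was called, and of all genes 0.00983% were called for ALL, with 0% for the HG + FFA and 0% for the AII + NA difference. Without KO VSMC set 5 the differences of Cpt1a were 0.83 (adjusted p = 0.41) for HG + FFA and 0.60 (adjusted p = 0.46) for ALL.

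The group means of Cpt1a in both genotypes lay further apart under Control than under HG + FFA. Cpt1a was 192 ± 54.5 FPM (SD, n = 4) in WT VSMC and 132 ± 67.2 FPM in KO VSMC under Control, and 269.6 ± 62.3 FPM and 244 ± 4.93 FPM under HG + FFA. The fitted log2 difference of the Control level in KO VSMC from that in WT VSMC was -0.59 (95% confidence interval -1.203 to 0.02, edgeR adjusted p = 0.81), and without set 5 it was -1.01 (adjusted p = 0.18). The part of the fibroblast and smooth muscle markers, whose ranges in both genotypes stand above, in these differences was not tested. No member differed between KO VSMC and WT VSMC under Control past the test, where 0% of all genes were called and none of the 7 members reached an unadjusted p under 0.05.

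EC and WT VSMC did not differ past the test in the response of any member. The HG + FFA effect in EC minus that in WT VSMC was 0.29 (95% confidence interval -0.04 to 0.62) for Cpt1a, 0.20 (-0.04 to 0.45) for Slc25a20, -0.0031 (-0.30 to 0.29) for Slc22a5 and 0.15 (-0.14 to 0.44) for Crot on the log2 scale. Over all genes 0% were called for this difference, 0.108% for AII + NA and 0.521% for ALL. At an unadjusted p under 0.05 the members were Crot for AII + NA (0.33, adjusted p = 0.73) and Cpt1c for ALL (-0.31, adjusted p = 0.62).

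For comparison between genes, Control levels were expressed per length as FPKM, the scaled reads per 1000000 divided by the length of the canonical transcript in kilobases. Reads were counted over all exons of a gene. The canonical transcripts of Cpt1c, Cpt1a and Slc25a20 have 2811, 6594 and 1783 bases, and all their exons together have 6884, 10940 and 6968. The order below depends on this choice of length and would differ with the length of all exons. In WT VSMC the order was Cpt1c (43.02 ± 8.17 FPKM, SD, n = 4), Cpt1a (30.8 ± 8.86), Slc25a20 (28.0 ± 1.85), Crat (15.6 ± 1.04), Cpt2 (15.4 ± 1.69), Crot (14.4 ± 2.11), Slc22a5 (8.53 ± 0.90) and Cpt1b (0.023). Cpt1a and Slc25a20 lay within their spread, as did Crat, Cpt2 and Crot, and Slc22a5 was the lowest of the members apart from Cpt1b. In KO VSMC Slc25a20 (25.4 ± 4.31 FPKM) stood above Cpt1a (20.3 ± 10.4 FPKM), again within the spread, and Cpt1c led with 40.4 ± 7.87 FPKM. In EC Cpt1a (28.0 ± 5.10 FPKM, n = 9) and Cpt1c (27.7 ± 8.13 FPKM) were followed by Slc25a20 (22.5 ± 4.62 FPKM), Crot (19.4 ± 5.66 FPKM), Crat (11.9 ± 3.01 FPKM), Cpt2 (11.01 ± 2.51 FPKM) and Slc22a5 (10.5 ± 1.44 FPKM), with overlap between neighbours.

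Control levels in EC and WT VSMC were compared for each member, and none passed the test with all Control libraries in the fit. The log2 difference of EC from WT VSMC was -0.61 ± 0.22 (SE, edgeR adjusted p = 0.071) for Cpt1c and -0.45 ± 0.18 (adjusted p = 0.089) for Cpt2. Crat was at -0.36 ± 0.16, Slc22a5 at 0.32 ± 0.14 and Crot at 0.46 ± 0.23, also without a call. Of all genes, 15% were called in this comparison and 0 of the 7 members. A single mouse supplied the Control libraries of both set 17 and set 18, and they entered this fit as separate libraries. Without set 18 Cpt1c passed the test, and without set 17 no member did. The absence of a call for Cpt1c thus depended on which of these libraries were kept. The marker content of EC sets 9, 11 and 13 differed from that of the other EC sets. The part of the markers in these differences was not tested.

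**Figure D3:**
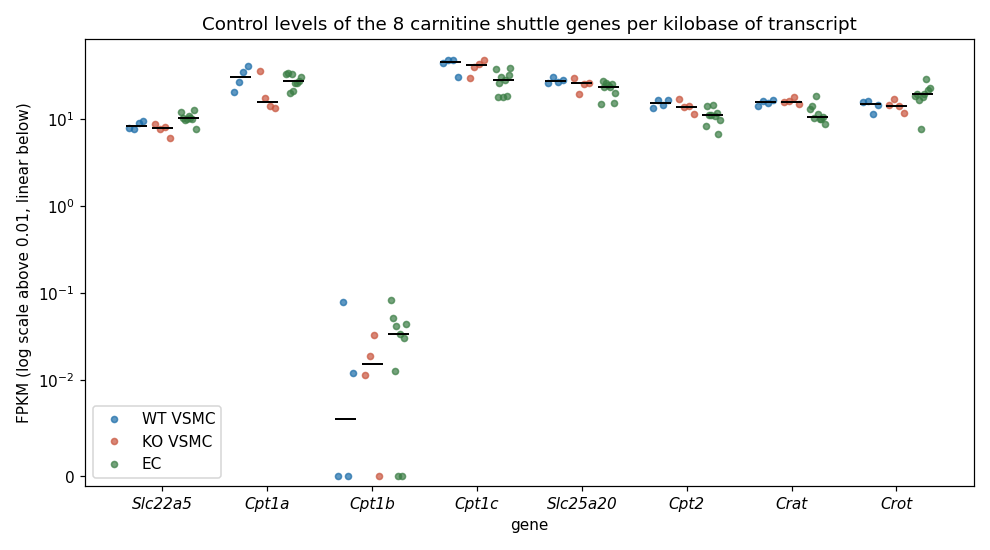
Control levels of the 8 carnitine shuttle genes (x axis) in FPKM (y axis, log scale above 0.01 and linear below it) in each WT VSMC, KO VSMC and EC library as points, with a black bar at the median of each group. FPKM uses the length of the canonical transcript, and the order of the genes depends on that choice. Cpt1c, Cpt1a and Slc25a20 are at the top, Slc22a5 is lowest of the tested members, with means of 7.71 to 10.5 FPKM, and Cpt1b lies far below, at 0 in some libraries.

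Genes that supply, control or follow the shuttle were counted by list. Of all genes tested, 0.538%, 0.439% and 3.53% were called under HG + FFA in WT VSMC, KO VSMC and EC. Under ALL these shares were 7.45%, 0.399% and 3.18%. Of 7 tested PPAR target genes outside oxidation, 3, 5 and 6 were higher under HG + FFA in WT VSMC, KO VSMC and EC, and 5, 5 and 6 under ALL. This list, like the others, was chosen with earlier results of these data known, so that the counts only describe it. Pdk4, the kinase that inactivates pyruvate dehydrogenase, was higher by 1.52, 1.63 and 1.204 on the log2 scale under HG + FFA in WT VSMC, KO VSMC and EC (edgeR adjusted p = 0.0067, 0.0017 and 9.9e-08). Angptl4, a secreted inhibitor of lipoprotein lipase, was higher by 2.13 in KO VSMC and 3.22 in EC under HG + FFA, and by 1.28, 2.37 and 3.22 in WT VSMC, KO VSMC and EC under ALL. Slc25a42, the mitochondrial coenzyme A carrier, was higher by 0.56 in WT VSMC under HG + FFA. The same calls were absent under AII + NA, where no gene of this list passed the test in any cell type.

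Of 15 mitochondrial beta-oxidation genes, 0 were called in WT VSMC under HG + FFA, 1 in KO VSMC and 4 in EC, and under ALL 1, 1 and 5. The 1 of 15 under ALL in WT VSMC was near the 7.45% of all genes called there. In EC 3.53% of all genes were called under HG + FFA and 3.18% under ALL, and in KO VSMC 0.439% and 0.399%. Acadl, the long-chain acyl-CoA dehydrogenase, was higher by 0.39 in KO VSMC and 0.52 in EC under HG + FFA, and under ALL by 0.23, 0.50 and 0.58 in WT VSMC, KO VSMC and EC (edgeR adjusted p = 0.045, 0.021 and 2.0e-06 for ALL). In EC Acaa2, the last enzyme of the cycle, was higher by 0.56 under HG + FFA and 0.61 under ALL, and Etfdh, which passes the electrons on to ubiquinone, by 0.30 under both. Echs1, the short-chain enoyl-CoA hydratase, was lower in EC, with log2 differences of -0.36 and -0.22. Of 10 peroxisomal beta-oxidation genes none was called in VSMC, and in EC Hsd17b4, a multifunctional enzyme of that pathway, was higher under ALL (0.19).

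Of 9 genes that set malonyl-CoA, the inhibitor of CPT1, none was higher. Those called as lower stand beside 7.45% of all genes called under ALL in WT VSMC. In EC the shares of all genes were 3.53% under HG + FFA and 3.18% under ALL. Acaca, which makes malonyl-CoA in the cytosol, was lower in EC under ALL (log2 difference -0.40, edgeR adjusted p = 0.014), Prkab1, a subunit of AMP-activated protein kinase, was lower in EC under HG + FFA and ALL (-0.24 in both), and Acacb, the carboxylase at the outer mitochondrial membrane, was lower in WT VSMC under ALL (-0.43, adjusted p = 0.044). None of the 5 genes of fatty acid activation, the 6 receptor and coactivator genes, the 4 other carnitine transporters and the 2 carnitine synthesis genes was called under HG + FFA, AII + NA or ALL in any cell type, among those that could be tested. Markers also moved with treatment: in WT VSMC under ALL the smooth muscle marker Tagln (0.95) was higher and the endothelial markers Cdh5 (-1.17) and Emcn (-1.57) were lower, 1 of 6 and 2 of 7 of their lists, and median smooth muscle sums were 685 FPM under Control, 582 FPM under HG + FFA, 1474 FPM under AII + NA and 1120 FPM under ALL. Of the exonic bases of Tagln, 66.7% are shared with genes on the opposite strand. The cardiomyocyte marker Tnnt2 was also higher in WT VSMC under ALL (1.07), and the fibroblast marker Pi16 was lower there under HG + FFA (-0.71) and ALL (-0.85). In KO VSMC no marker was called under any stressor. In EC Emcn was higher under HG + FFA (0.37) and ALL (0.40), and Pi16 was lower under HG + FFA (-1.03). The part of these markers in the changes of the shuttle genes was not tested.

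As a description of which genes shared a pattern, Pearson correlations of log2 levels, each centred on its set, were taken over the 69 libraries between each member and 11394 genes. These libraries share sets and treatments, and no p is given. Cpt1a was most like Vwa8 (0.92), Scarb2 (0.92) and Pdk4 (0.92), Slc22a5 most like Pdk4 (0.90), Cpt1a (0.84) and Fads1 (0.84), and Slc25a20 most like Acaa2 (0.91), Ech1 (0.90) and Acadl (0.90). Cpt1c was most like Lrp10 (0.85), Ilvbl (0.83) and Ehmt2 (0.81), Crat most like Ttll12 (0.82), Nacc1 (0.82) and Eef2 (0.81), Crot most like Ccng1 (0.85) and Dram2 (0.84), and Cpt2 most like Cdkn2aipnl (0.68), Trappc2l (0.65) and Rhod (0.64). Among the members, Cpt1a correlated with Slc22a5 at 0.84 and with Slc25a20 at 0.82, and Slc22a5 with Slc25a20 at 0.74. Crat and Crot had a negative value of -0.33, and Cpt2 lay between 0.08 and 0.37 with all other tested members.

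**Figure D4:**
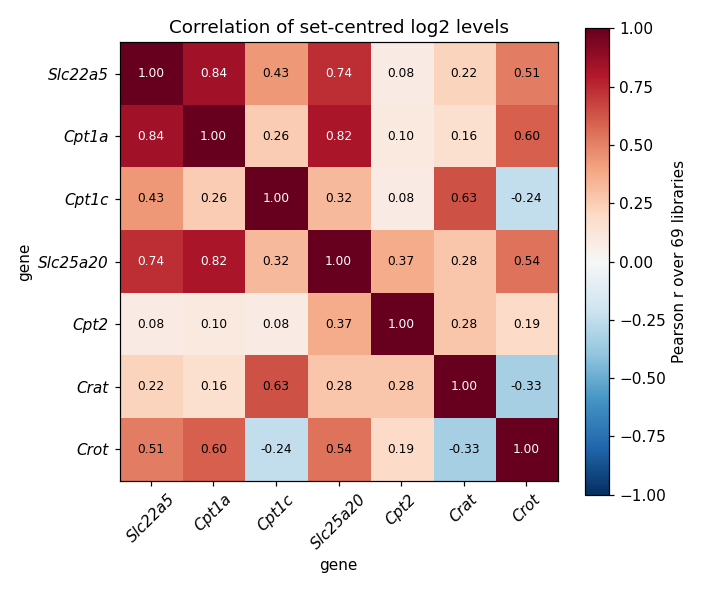
Pearson correlation between the set-centred log2 levels of the 7 testable carnitine shuttle genes over 69 libraries, both axes listing the genes and colour giving r. Cpt1a, Slc22a5 and Slc25a20 form the block with the highest values, 0.74 to 0.84, and Crat with Crot has -0.33.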

How the data were processed

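Poly(A) RNA of 69 libraries was sequenced. Per the file headers and the methods of the study, the authors deposited raw read counts per gene, made with HISAT2 2.1.0 and featureCounts on mm39, with multi-mapping reads counted; whether strand was used is not given in the sources used here. Groups and sets followed the labels. Of the gene identifiers, 56310 were matched to GRCm39 symbols, and unmatched rows held 0.0241% of the counts.

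Within each cell type, edgeR 4.0.16 (R 4.3.3) fitted counts with TMM factors, its default low-count filter, a quasi-likelihood test and the set number as a block, because a set shares animal, passage and time of treatment. Deviations from group means correlated at 0.80 to 0.86 within a set and at -0.29 to -0.09 between sets. Subtracting the group mean by itself makes the values between sets negative on average. Differences of effects came from 1 fit over all libraries, and Control levels from Control libraries. A call is a Benjamini-Hochberg adjusted p under 0.05 over all genes tested, and intervals are 95%. The tests were checked on simulated data. No libraries were duplicates: the smallest chi-square per gene between libraries of a group was 45.9, where sampling noise alone gives about 1. Intervals and the limits set by low counts cover counting error and the spread between sets only.

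The members and gene lists were chosen with earlier results of these data known. All members are described; of each list, up to 3 called genes with the largest change under HG + FFA or ALL are named, with every called malonyl-CoA gene, and the 3 genes most like each member. A few genes that this rule names are not reported here. Motif matches used GRCm39 and RefSeq promoters of GRCm38.p6. Alternatives were DESeq2 1.42.0, its size factors, no count filter, no set block, the animal as block, fewer libraries in the fit, and each set left out. After seeing the data, EC sets 9, 11 and 13 and KO VSMC set 5 were also left out.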

Additional observations from a re-analysis of the deposited data

Results flagged for a closer look

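Of 88 groups of a member, cell type and treatment, 8 held a library that stood apart from the rest by Dixon's criterion, which chance alone passes in about 1 in 20 groups. In KO VSMC set 5, Cpt1a was 232 FPM under Control (nearest other library 113 FPM) and Cpt2 was 48.7 FPM under HG + FFA (nearest 28.8 FPM); this is the set with Egfr at 35.8 FPM. In WT VSMC, Cpt1c was 97.6 FPM in set 4 under ALL (nearest 147 FPM), and Cpt2 was 40.1 FPM in set 2 under ALL (nearest 33.7 FPM). Crat was 71.2 FPM in KO VSMC set 7 under Control (nearest 62.9 FPM), and Cpt2 was 38.0 FPM in EC set 14 under AII + NA (nearest 27.7 FPM). Cpt1b was 0.23 FPM in WT VSMC set 2 under Control and 0.22 FPM in EC set 17 under AII + NA, both of a few reads.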

How the results depend on the processing

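The log2 differences of all called members stayed positive under every alternative that was run. Of 1491 member values, 76 lost their call and 18 gained one. A further 1392 kept their side of the threshold with the same sign or a change of sign smaller than their SE. Another 5 values, uncalled in both fits, changed sign by at least their SE, and 0 values called in either fit changed sign. Shifts in size without a change of sign or call were not counted. Of 213 counts of members, 181 stayed equal or close. EC Cpt1a was called in 18 of 18 alternatives under HG + FFA and under ALL. The causes of the changes below were not tested.

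The set number pairs libraries of the same animal. With no replicate block, the members called fell to 0 for ALL in WT VSMC, 0 for HG + FFA and 0 for ALL in KO VSMC, and 1 for each in EC, against 3, 3, 2 and 4 with it. With the animal as the block they numbered 2 for each in EC.

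DESeq2 called 1 member (Cpt1a) for HG + FFA in WT VSMC, no count filter 2, and a fit of only the libraries of the 2 conditions 1, against 0. The last fit called 0 for ALL in WT VSMC, 0 for HG + FFA in KO VSMC and 2 for ALL in EC. Complete sets gave 4 for ALL in KO VSMC and 2 for ALL in EC. Without EC sets 9, 11 and 13, 2 members were called for each. Without EC set 18, 1 member (Cpt1c) differed from WT VSMC under Control. With 1 set left out in turn, the members called ranged from 0 to 2 for ALL in WT VSMC, from 0 to 4 for HG + FFA and from 0 to 4 for ALL in KO VSMC, from 3 to 4 for HG + FFA and from 2 to 4 for ALL in EC, and from 0 to 2 for EC against WT VSMC under Control (Cpt2 without set 11, Crat and Crot without set 13, Cpt1c without set 18).

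Over all genes, DESeq2 against edgeR called 512 against 91 (WT VSMC), 544 against 77 (KO VSMC) and 998 against 605 (EC) for HG + FFA, 1588 against 1259, 465 against 70 and 916 against 546 for ALL, and 390 against 9, 366 against 0 and 85 against 0 for AII + NA. Cpt1b entered only the fits with no count filter and DESeq2, with no call.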
